A study of Mus musculus with 8 samples.

Results

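The Stat factors and their Socs feedback inhibitors were examined in sorted mouse bone marrow progenitors. The 9 genes, taken by symbol from a table of read counts for 23284 genes, were Stat3, Stat4, Stat5a, Stat5b, Stat6, Socs1, Socs2, Socs3 and Cish. All 9 were in the table and had enough counts to be tested. The mice were on a C57BL/6 background and carried a green fluorescent protein reporter for Hdc, the gene of histidine decarboxylase, which makes histamine. LSK cells, which lack lineage markers and carry Sca-1 and c-Kit, were taken as Hdc-GFPhi cells (high GFP, 4 libraries) and Hdc-GFPlo cells (low GFP, 4 libraries). Each library was made from RNA of 2000 cells. Bone marrow came from femur, tibia, ilium and vertebra, and both fractions carry the reporter. A cell type label of Hdc-GFPhi library 4 calls its cells GFP+ where its title and source say Hdc-GFPhi. Age, sex, any treatment of the mice and the reporter construct are not stated in the labels. Nor do the labels tell whether the replicates are different animals. The p-values therefore measure the spread between these libraries, which may be partly technical.

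Library totals were 21041170 to 22470121 counts in Hdc-GFPhi and 16726179 to 23051277 in Hdc-GFPlo. The sorted surface markers were present as transcripts in both fractions. Kit averaged 1460 ± 110 CPM in Hdc-GFPhi, against 1200 ± 315 CPM in Hdc-GFPlo (CPM, read counts scaled to a common library size by TMM; SD, n = 4 each), and Ly6a, which encodes Sca-1, averaged 125 ± 19 CPM in Hdc-GFPhi, against 119 ± 16.9 CPM in Hdc-GFPlo. Libraries 1 and 2 of both fractions stood apart from libraries 3 and 4 in immediate-early genes, a class of genes switched on within minutes of a stimulus. The summed level of 11 such genes was 2640, 1910, 525 and 776 CPM in Hdc-GFPhi libraries 1 to 4 and 2250, 1760, 671 and 518 CPM in Hdc-GFPlo libraries 1 to 4. Hdc-GFPlo library 3 also had less of long transcripts. Its 2422 genes with transcripts over 5000 bases lay at a median of -0.23 on the log2 CPM scale from their mean over all libraries, and its 1830 genes under 1500 bases at 0.34, against medians of -0.034 to 0.099 and -0.11 to 0.146 in the other libraries.

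Stat proteins are latent transcription factors that Jak kinases phosphorylate at activated cytokine receptors, after which they pair, enter the nucleus and bind DNA. Many of the genes that they switch on encode Socs proteins and Cish, which bind the receptors or kinases and shut the signal down. In blood stem and progenitor cells, interleukin-3 and interleukin-7 act through Stat5, and interleukin-6 and G-CSF act largely through Stat3.

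None of the 9 genes passed an adjusted p of 0.05 between the fractions in edgeR's quasi-likelihood test across 13300 genes, of which 0.947% passed. Socs2 and Stat5a had an unadjusted p under 0.05, a level that 10.9% of all genes reached, and DESeq2 and limma voom each called 1 of the 9, Socs2. Those tools called more genes in all, 3.04% with DESeq2 and 2.09% with limma voom. Socs2 was at a 1.47-fold and Stat5a at a 1.25-fold higher level in Hdc-GFPhi, and for both, every Hdc-GFPhi library was above every Hdc-GFPlo library. Such a separation, in either direction, was found for 6.92% of all genes, 3.38% with Hdc-GFPhi higher and 3.54% with Hdc-GFPhi lower. Socs3 varied more between libraries of the same fraction than any other of the 9 genes and was high in the libraries where immediate-early genes were high. The median log2 fold change of the 9 genes was 0.11, against 0 over all genes tested, with 7 above 0 and 2 below. In bulk samples such as these, fewer cells that express a gene and less RNA per cell cannot be told apart.

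**Figure D1:**
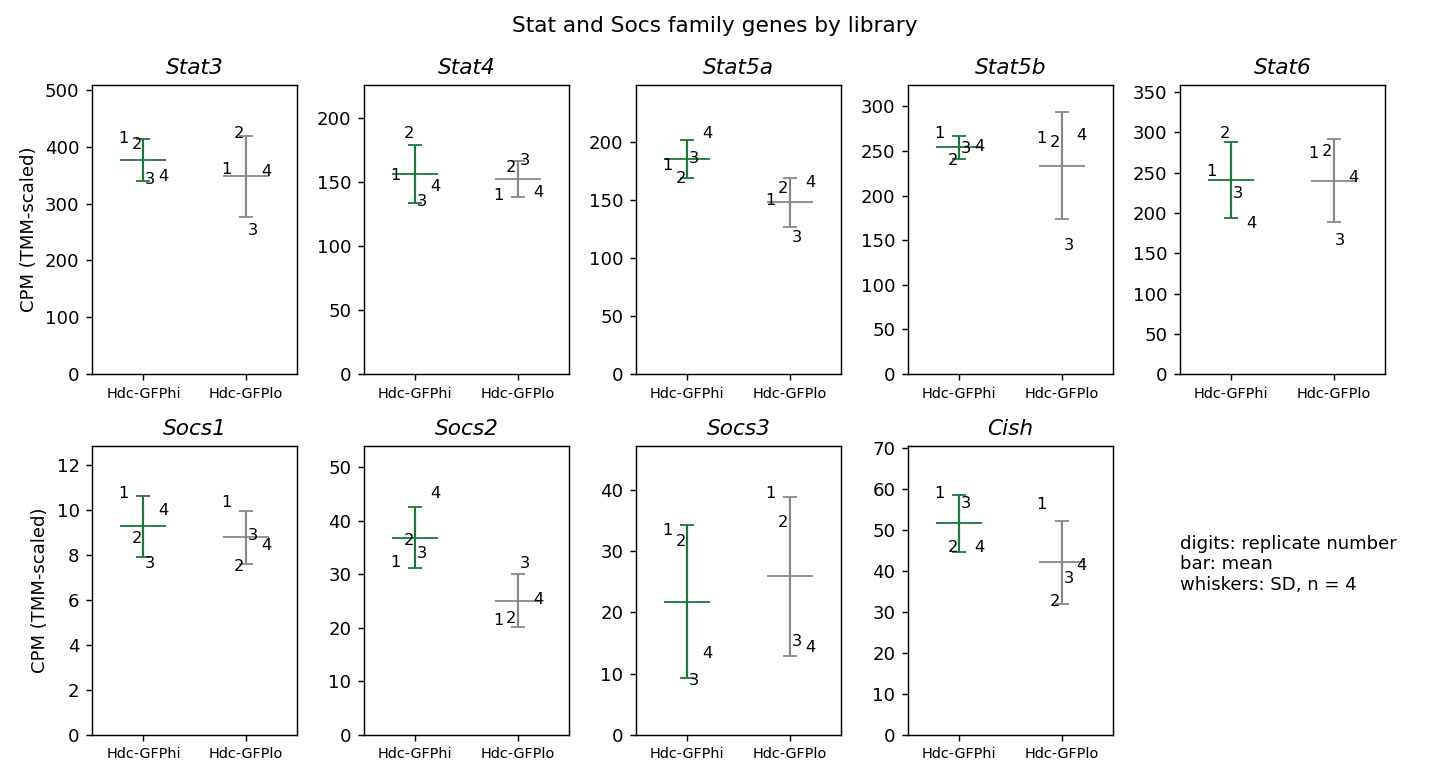
Level of each Stat and Socs family gene in CPM (TMM-scaled, linear axis from 0) in Hdc-GFPhi (left) and Hdc-GFPlo (right); digits are replicate numbers, bars are means and whiskers SD over 4 libraries. The fractions do not overlap for Socs2 and Stat5a, Socs3 falls into a high set (libraries 1 and 2) and a low set (libraries 3 and 4) in both fractions, and Hdc-GFPlo library 3 is the lowest for Stat3, Stat5a, Stat5b and Stat6.

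Per kilobase of the longest annotated transcript, the 5 Stat genes were all above the 4 Socs family genes in mean level. The mean over all libraries was 63.6 CPM per kilobase for Stat6, 60 for Stat3, 51.6 for Stat4, 46.8 for Stat5b and 43 for Stat5a. It was 16.5 for Cish, 13.9 for Socs2, 9.32 for Socs3 and 3.1 for Socs1. The ranges over libraries of neighbours in this order overlapped within each set, for example 44 to 79.2 for Stat6 and 41.7 to 70.2 for Stat3. The ranges of Socs3 (3.45 to 15.4) and Socs1 (2.57 to 3.7) also overlapped, through Hdc-GFPhi library 3. Between the sets they did not, since the lowest Stat value was 27.6 (Stat5b in Hdc-GFPlo library 3) and the highest Socs value was 20.7 (Cish in Hdc-GFPhi library 1).

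Stat3, the effector of interleukin-6 family cytokines and G-CSF, had 414, 404, 342 and 348 CPM in Hdc-GFPhi libraries 1 to 4 and 360, 424, 252 and 356 CPM in Hdc-GFPlo libraries 1 to 4. The fractions overlapped, and Hdc-GFPlo library 3 was the lowest. The log2 fold change of Hdc-GFPhi against Hdc-GFPlo was 0.11 ± 0.14 (SE), with a 95% interval of -0.19 to 0.42 (edgeR adjusted p = 0.854).

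Stat4, which carries interleukin-12 signals in T and NK cells, had 155, 188, 135 and 146 CPM in Hdc-GFPhi and 139, 161, 167 and 142 CPM in Hdc-GFPlo. The libraries of the fractions were interleaved, and the log2 fold change was 0.03 ± 0.12 with an interval of -0.22 to 0.29 (edgeR adjusted p = 0.954). Hdc-GFPlo library 3, low in the other Stat genes, was the highest Hdc-GFPlo library for Stat4.

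Stat6, the effector of interleukin-4 and interleukin-13, had 251, 299, 224 and 187 CPM in Hdc-GFPhi and 274, 276, 166 and 244 CPM in Hdc-GFPlo. The mean was 240 ± 47.3 CPM in Hdc-GFPhi, against 240 ± 51.6 CPM in Hdc-GFPlo (SD, n = 4 each), the closest pair of means among the 9 genes. The interval of the log2 fold change was -0.37 to 0.37 (edgeR adjusted p = 0.999). Libraries 1 and 2 averaged 1.34 times the level of libraries 3 and 4 in Hdc-GFPhi and also 1.34 times in Hdc-GFPlo.

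Stat5a and Stat5b are close paralogs that lie next to each other on chromosome 11, with Stat3 beside them, and carry interleukin-3, interleukin-7 and growth hormone signals. Their coding sequences share a stretch of 324 bases without a mismatch, coding bases 571 to 894 of each gene (counted from the A of the start codon, GENCODE M21 transcripts, GRCm38). The last 60 bases of it and the next 30 are shown because reads that lie within the shared stretch could come from either gene. Capitals mark the unbroken shared stretch, which ends at the first difference, and bases after it are in small letters whether or not they are alike.
Stat5a: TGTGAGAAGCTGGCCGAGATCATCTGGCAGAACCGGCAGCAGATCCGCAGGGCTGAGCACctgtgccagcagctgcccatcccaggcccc
Stat5b: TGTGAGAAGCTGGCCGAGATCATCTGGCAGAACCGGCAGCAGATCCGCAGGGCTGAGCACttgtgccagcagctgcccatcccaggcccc
Of all 50-base words in the coding sequence of Stat5a, 25.9% also occur in Stat5b, and 26.3% of those of Stat5b occur in Stat5a. No other pair of the 9 genes shares such a word. No source used here says how the counting treated reads with several placements, so the level of each Stat5 gene is less certain than that of the other Stat genes.

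Stat5a had 180, 169, 186 and 208 CPM in Hdc-GFPhi and 150, 160, 118 and 165 CPM in Hdc-GFPlo. The lowest Hdc-GFPhi library, at 169 CPM, lay just above the highest Hdc-GFPlo library, at 165 CPM. The mean was 186 ± 16.6 CPM in Hdc-GFPhi, against 149 ± 21.1 CPM in Hdc-GFPlo (SD, n = 4 each). The log2 fold change was 0.32 ± 0.12 with an interval of 0.06 to 0.58 and did not pass after adjustment over all genes (edgeR adjusted p = 0.31). The Hdc-GFPhi library was the higher in all 4 replicate numbers, as it was for 10.9% of all genes tested. Without Hdc-GFPlo library 3 and Hdc-GFPhi library 4 together, the log2 fold change was 0.18 (edgeR adjusted p = 0.433).

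Stat5b had 270, 239, 253 and 255 CPM in Hdc-GFPhi and 264, 259, 144 and 267 CPM in Hdc-GFPlo. Apart from Hdc-GFPlo library 3, all libraries of both fractions lay between 239 and 270 CPM. The log2 fold change of 0.12 ± 0.17 (edgeR adjusted p = 0.868) was -0.03 without that library (edgeR adjusted p = 0.914). Hdc-GFPlo library 3 is also the library with less of long transcripts. With the trend by transcript length removed from every library, the log2 fold change of Stat5b was 0.13 ± 0.13 (edgeR adjusted p = 0.735). The part of transcript length in the CPM of Hdc-GFPlo library 3 itself was not tested. Stat5b has the second longest transcript of the 9 genes, 5213 bases after 6042 for Stat3.

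The share of Stat5a among the counts of both Stat5 genes was 40% (95% exact binomial interval 39.1 to 41), 41.3%, 42.3% and 44.9% in Hdc-GFPhi libraries 1 to 4. It was 36.2% (35.3 to 37.2), 38.2%, 45.1% and 38.3% in Hdc-GFPlo libraries 1 to 4. The intervals cover counting error only, since reads copied from the same molecule are not independent. Hdc-GFPlo library 3 had the highest share of all 8 libraries and the other 3 Hdc-GFPlo libraries the lowest 3. The mean share was 42.1 ± 2.07% in Hdc-GFPhi and 39.5 ± 3.88% in Hdc-GFPlo (SD, n = 4 each), a difference of 2.69 percentage points that is smaller than the SD within Hdc-GFPlo. Without Hdc-GFPlo library 3 the difference was 4.58 points.

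**Figure D2:**
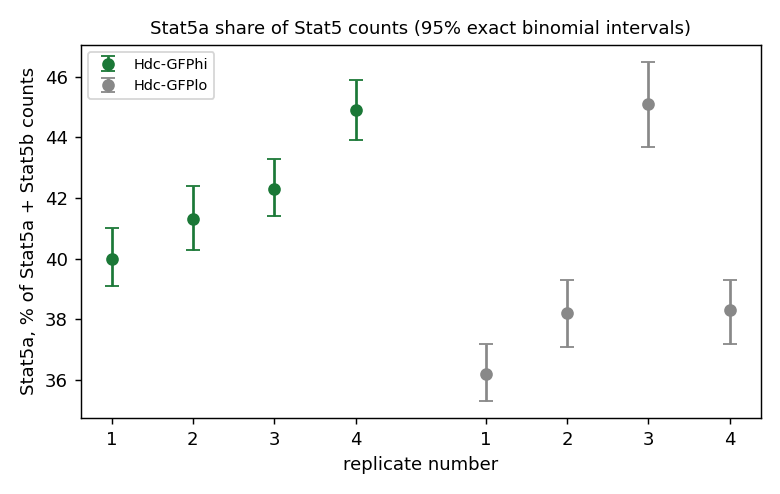
Share of Stat5a among Stat5a plus Stat5b counts (percent, axis not from 0) by replicate number in Hdc-GFPhi (left) and Hdc-GFPlo (right); whiskers are 95% exact binomial intervals and cover counting error only. Hdc-GFPlo library 3, at 45.1%, lies above the other Hdc-GFPlo libraries, which lie between 36.2% and 38.3%.

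Socs2, which dampens growth hormone and other Stat5-linked signals, had the largest fold change of the 9 genes above 0. It had 32.2, 36.3, 33.8 and 45 CPM in Hdc-GFPhi and 21.3, 21.8, 32 and 25.2 CPM in Hdc-GFPlo. Hdc-GFPlo library 3, at 32 CPM, lay just under the lowest Hdc-GFPhi library, at 32.2 CPM, and the other 3 Hdc-GFPlo libraries were well below. The mean was 36.8 ± 5.68 CPM in Hdc-GFPhi, against 25.1 ± 4.93 CPM in Hdc-GFPlo (SD, n = 4 each). On the log2 scale Socs2 differed by 0.56 ± 0.16 (95% interval 0.20 to 0.91). The edgeR p was 0.00476 and the adjusted p 0.168. The Hdc-GFPhi library was the higher in all 4 replicate numbers, as for 10.9% of all genes tested.

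Whether Socs2 passed the threshold depended on the method and on 1 library. It was called without Hdc-GFPlo library 3 (log2 fold change 0.71, edgeR adjusted p = 0.0414), with DESeq2 (adjusted p = 0.0466) and with limma voom, which gives each library a quality weight (adjusted p = 0.033). It was not called with libraries 1 and 2 against 3 and 4 as a covariate (edgeR adjusted p = 0.0542) or in the other fits with 1 library left out, in which the adjusted p was 0.212 to 0.456. Over all 21 alternatives its log2 fold change stayed between 0.45 and 0.71.

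Some markers of the LSK cells themselves also separated between the fractions, though edgeR called none. Of 8 such markers, 4 separated with every Hdc-GFPhi library higher, and these were Procr (1.61-fold), Mecom (1.5-fold), Gata2 (1.47-fold) and Hlf (1.36-fold), genes known for expression in blood stem cells. Cd34 separated with every Hdc-GFPhi library lower, and Flt3, a marker of multipotent and lymphoid progenitors, averaged 876 ± 91 CPM in Hdc-GFPhi, against 1240 ± 203 CPM in Hdc-GFPlo. Over all genes tested, 3.38% separated with Hdc-GFPhi higher and 3.54% with Hdc-GFPhi lower. None of the 8 was called by edgeR, and 5 had an unadjusted p under 0.05, against 10.9% of all genes. DESeq2 and limma voom each called 4 higher and 1 lower, against 3.04% and 2.09% of all genes in either direction. The summed level of the 8 was 4360 to 4750 CPM in Hdc-GFPhi, against 3810 to 4990 CPM in Hdc-GFPlo, with none at 0. The part of the mix of LSK cells in the Socs2 values was not tested.

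Cish, a classical Stat5 target whose protein competes with Stat5 at receptors, had 58.9, 45.8, 56.6 and 45.7 CPM in Hdc-GFPhi and 56.4, 32.7, 38.3 and 41.5 CPM in Hdc-GFPlo. Of the Hdc-GFPlo libraries, only library 1 reached the Hdc-GFPhi range. Hdc-GFPhi was the higher in all 4 replicate numbers, as for 10.9% of all genes tested. The log2 fold change was 0.29 ± 0.17 with an interval of -0.07 to 0.65 (edgeR adjusted p = 0.594). The start site of Cish is shown because it holds 2 copies of TTCNNNGAA, the palindromic element that Stat proteins bind, and Socs3 holds 1. Sequences are from RefSeq promoters of GRCm38.p6, each on the strand of its gene, and capitals mark the element.
Cish, chr9:107296657-107296681, plus strand: ttTTCCTGGAAagTTCTTGGAAatc
Socs3, chr11:117969504-117969528, minus strand: aaccagccTTCTTAGAAgggagggg
The first bases of the Cish copies are bases 1 and 12 of the annotated transcript, and that of the Socs3 copy is at -154. In windows of 250 bases before to 50 after the start site, 8 of the 9 genes had a RefSeq entry, with 11 windows in all, and the element was in the 2 windows shown. It was in 8.3% of all 32851 windows, and at least 2 copies were in 0.457%. The element reads the same on both strands. The wider element that Stat6 favours, with 1 more base between TTC and GAA, was in none of the 11 windows and in 6.95% of all windows. These matches describe letters in a window and are not binding measurements.

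Socs1, an inhibitor of interferon and interleukin signals, was the lowest of the 9 genes per kilobase. It had 10.7, 8.73, 7.61 and 9.98 CPM in Hdc-GFPhi and 10.3, 7.48, 8.86 and 8.42 CPM in Hdc-GFPlo, from 126 to 241 counts per library. The fractions overlapped fully, with a log2 fold change of 0.08 ± 0.19 and an interval of -0.33 to 0.49 (edgeR adjusted p = 0.934).

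Socs3, the inhibitor induced by Stat3 that limits interleukin-6 and G-CSF signals, had 33.3, 31.5, 8.81 and 13.2 CPM in Hdc-GFPhi and 39.3, 34.6, 15.3 and 14.2 CPM in Hdc-GFPlo. In both fractions libraries 1 and 2 were high and libraries 3 and 4 low, by 2.94 times in Hdc-GFPhi and 2.5 times in Hdc-GFPlo. The largest value was 4.46 times the smallest, against 1.4 to 2.11 times for the other 8 genes. Its SD within fractions was 0.86 on the log2 CPM scale. That was larger than in 99.6% of a set made of Socs3 itself and the 500 tested genes nearest to it in level. The median SD of those 500 was 0.24. Between fractions the log2 fold change was -0.25 ± 0.46, with an interval of -1.26 to 0.76 (edgeR adjusted p = 0.91). It was 0.01 without Hdc-GFPhi library 3 and 0.02 without Hdc-GFPlo library 1.

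The same split of libraries was seen in the immediate-early genes. Fos had 433, 325, 18.2 and 38.4 CPM in Hdc-GFPhi and 363, 266, 31.7 and 15.5 CPM in Hdc-GFPlo. Junb, an AP-1 factor gene from the list of Stat targets that was chosen for mention after its values were seen, had 522, 382, 111 and 170 CPM in Hdc-GFPhi and 395, 335, 146 and 118 CPM in Hdc-GFPlo. No label ties the replicate numbers to a day or batch, and the part of immediate-early induction in the Socs3 values was not tested.

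Within each set of libraries, Socs3 was lower in Hdc-GFPhi without overlap. The sets were read off these same libraries, and the share of all genes with this order was not computed. Libraries 1 and 2 had 33.3 and 31.5 CPM in Hdc-GFPhi against 39.3 and 34.6 CPM in Hdc-GFPlo, and libraries 3 and 4 had 8.81 and 13.2 CPM in Hdc-GFPhi against 15.3 and 14.2 CPM in Hdc-GFPlo. Hdc-GFPhi was the lower in all 4 replicate numbers, as for 11.2% of all genes. With the split as a covariate the log2 fold change was -0.30 ± 0.15. It was still not called by edgeR's quasi-likelihood test (adjusted p = 0.406). Fos and Junb did not share this order, since Hdc-GFPhi library 1 was the highest of all 8 for both. Btg2, another of the immediate-early genes, did share it. It had 84.1, 59.5, 48 and 47.1 CPM in Hdc-GFPhi and 132, 88.8, 61.3 and 58.4 CPM in Hdc-GFPlo. Of the 10 tested immediate-early genes, 7 had a log2 fold change above 0 and 3 below, and none was called by edgeR. Socs2 tended the other way, with libraries 1 and 2 at 0.87 times the level of libraries 3 and 4 in Hdc-GFPhi and at 0.754 times in Hdc-GFPlo. The sets overlapped in Hdc-GFPhi and did not in Hdc-GFPlo, and the part of the split in the Socs2 values was not tested beyond the covariate fit.

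**Figure D3:**
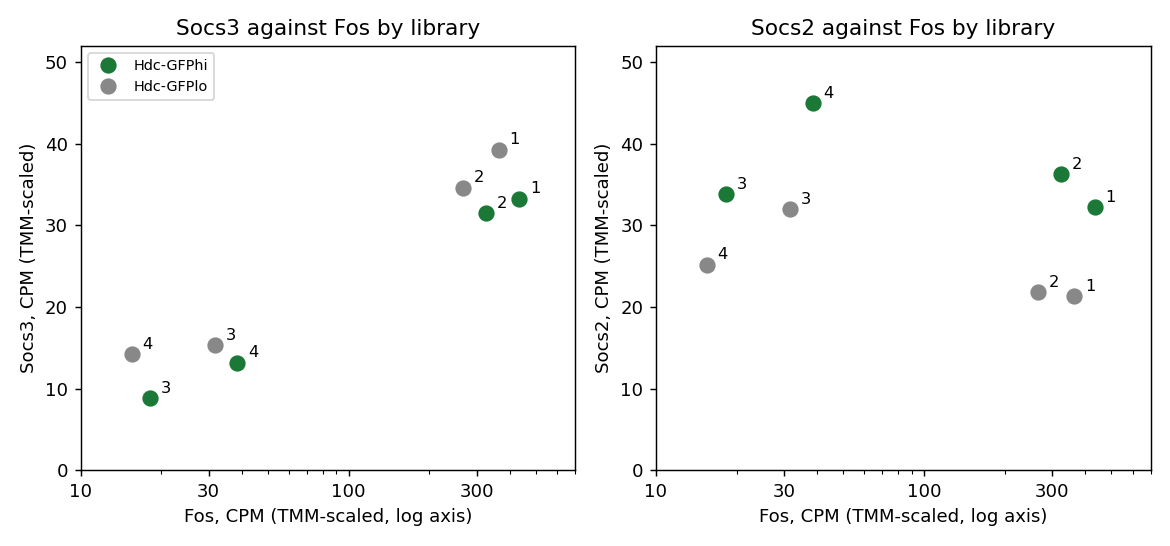
Socs3 (left) and Socs2 (right) in CPM on linear axes against Fos in CPM on a log axis, 1 point per library with its replicate number, Hdc-GFPhi in green and Hdc-GFPlo in grey. Socs3 and Fos are high together in libraries 1 and 2 of both fractions, and at like Fos levels the Hdc-GFPhi points for Socs3 lie below the Hdc-GFPlo points.

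The genes whose pattern was most like Socs2 and Stat5a were sought among 11513 genes with a mean of at least 50 counts, by Pearson correlation of log2 CPM over the 8 libraries. For Socs2 they were 6330403K07Rik (r = 0.975), Fzd3, a Wnt receptor (r = 0.973), and Slamf1, a surface marker of stem cells also known as CD150 (r = 0.963). For Stat5a they were Vsig10 (r = 0.989), Kif7 (r = 0.979) and Rassf4 (r = 0.979). After each fraction's mean was taken off, they were Zfp414 (r = 0.977), 2400001E08Rik (r = 0.975) and Mettl11a (r = 0.974) for Socs2, and Zfp282 (r = 0.988), Map2k4 (r = 0.983) and Zfyve20 (r = 0.982) for Stat5a. The 8 points share the sort, the preparation and the depth of their library, and these values are descriptions.

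Upstream of the Stat factors, none of the 4 Jak kinases was called. Jak1 averaged 664 ± 41.2 CPM in Hdc-GFPhi, against 632 ± 94.2 CPM in Hdc-GFPlo, and Jak2, which serves the growth hormone receptor, 144 ± 9.73 CPM in Hdc-GFPhi, against 138 ± 23.7 CPM in Hdc-GFPlo (SD, n = 4 each). Jak3, the partner of the common gamma chain, averaged 345 ± 88.1 CPM in Hdc-GFPhi, against 307 ± 72.3 CPM in Hdc-GFPlo. Tyk2 averaged 117 ± 16.9 CPM in Hdc-GFPhi, against 116 ± 28.8 CPM in Hdc-GFPlo. No call was made by edgeR, DESeq2 or limma voom, and none of the 4 had an unadjusted p under 0.05. Their log2 fold changes were 0.01 to 0.17, with 95% intervals that lay between -0.37 (Tyk2) and 0.60 (Jak3). That of Jak2 was -0.01 and that of Tyk2 -0.08 with limma voom. Stat2, which carries interferon signals, had a log2 fold change of 0.04 and was not called (edgeR adjusted p = 0.953). None of the 6 Stat and Socs family genes outside the 9 was called by edgeR, DESeq2 or limma voom or had an unadjusted p under 0.05, and the lowest p among them was that of Socs4 (log2 fold change -0.44 ± 0.22, edgeR adjusted p = 0.52).

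Of the receptors and ligands of the pathway, 4 were called. Over 6 Jak-Stat lists with 68 tested genes of 82, edgeR called 2 higher and 2 lower in Hdc-GFPhi, and the median log2 fold change was 0. Over all genes tested, edgeR called 0.241% higher and 0.707% lower. Of 28 tested receptor genes of 30, 2 were called higher and 1 lower, with 12 log2 fold changes above 0 and 16 below and a median of -0.04. DESeq2 called 5 of the receptor genes, against 3.04% of all genes, and limma voom 4, against 2.09%. Of 6 tested cytokine genes of 18, 1 was called lower, and Il3, Il6, Il12b, Il21 and Epo had no count in any library.

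Il11ra1, the binding chain of the interleukin-11 receptor, had 58.5, 58.2, 53.3 and 54.9 CPM in Hdc-GFPhi and 32.8, 36.2, 39.7 and 35.2 CPM in Hdc-GFPlo. All Hdc-GFPhi libraries were above all Hdc-GFPlo libraries. Il11ra1 rose by 0.65 ± 0.11 on the log2 scale (edgeR adjusted p = 0.0143), a call lost without Hdc-GFPhi library 1 or Hdc-GFPlo library 1 or 4 (adjusted p = 0.0559 to 0.0752).

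Il7r, the interleukin-7 receptor chain that signals to Stat5 in early lymphocytes, had 5.26, 6.39, 3.74 and 4.1 CPM in Hdc-GFPhi and 47.5, 24.9, 32.9 and 24.4 CPM in Hdc-GFPlo. It fell to a level 6.65-fold lower in Hdc-GFPhi (log2 fold change -2.73 ± 0.25, edgeR adjusted p = 3.73e-04). Il12a, the p35 subunit of interleukin-12, had 86.2, 84.6, 77.5 and 80.3 CPM in Hdc-GFPhi and 181, 180, 224 and 161 CPM in Hdc-GFPlo. Its log2 fold change was -1.18 ± 0.11 (edgeR adjusted p = 3.73e-04), and its partner subunit gene Il12b had no count. Il4 had the next lowest p of the cytokine genes and averaged 2.27 ± 0.63 CPM in Hdc-GFPhi, against 1.15 ± 0.42 CPM in Hdc-GFPlo (edgeR adjusted p = 0.359).

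In libraries 3 and 4 alone, with 2 libraries per fraction, Il7r was still called (edgeR adjusted p = 0.00347), and Il12a and Il11ra1 were not (adjusted p = 0.0561 and 0.818), with log2 fold changes of -1.29 and 0.53.

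B cell markers had the same direction between the fractions as Il7r and Il12a. Of 8 such markers, all tested, edgeR called 3 lower in Hdc-GFPhi, against 0.707% of all genes tested. The summed level of the 8 was 102 to 198 CPM in Hdc-GFPhi, against 276 to 504 CPM in Hdc-GFPlo. Pax5 was at 0 in Hdc-GFPhi library 4, and none was at 0 in all libraries. Of 10 T and NK cell markers 3 could be tested and edgeR called 1 lower, against the same 0.707% of all genes tested. Cd8a was at 0 in all libraries. The sum of the 10 was 95.3 to 128 CPM in Hdc-GFPhi, against 150 to 171 CPM in Hdc-GFPlo. Lck, the called gene, made up most of that sum, at 91.8 ± 9.39 CPM in Hdc-GFPhi, against 138 ± 8.07 CPM in Hdc-GFPlo. Cd4 was nearly level, at 21.3 CPM against 20.8 CPM, and Klrd1 averaged 0.215 CPM against 1.55 CPM. The other markers, among them Cd3e, Cd3g and Cd3d, had too few counts to be tested. Of 10 monocyte and neutrophil markers, 9 also had a log2 fold change below 0 and 1 above, with a median of -0.51. EdgeR called 2 of them lower, against 0.707% of all genes tested. They were Ly6c2 (log2 fold change -1.17 ± 0.18, edgeR adjusted p = 0.00817) and Ccr2 (-1.36 ± 0.26, adjusted p = 0.0286). The part of cells nearer to the lymphoid or myeloid lineages in these values was not tested.

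Negative regulators other than the Socs genes and the target genes of the pathway gave no call. Of 12 inhibitor genes none was called by edgeR, DESeq2 or limma voom and none had an unadjusted p under 0.05, with a median of -0.04. The smallest p values were those of the phosphatase genes Ptpn2 (log2 fold change -0.27 ± 0.14, edgeR adjusted p = 0.539) and Ptprc, which encodes CD45 (-0.17 ± 0.10, adjusted p = 0.594). Of 12 Stat target genes none was called by edgeR, DESeq2 or limma voom and 1 had an unadjusted p under 0.05, with a median of 0.06. That was the cyclin gene Ccnd1 (log2 fold change -0.30 ± 0.14, edgeR adjusted p = 0.44), and the survival kinase gene Pim2 followed (0.27 ± 0.18, adjusted p = 0.668).

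**Figure D4:**
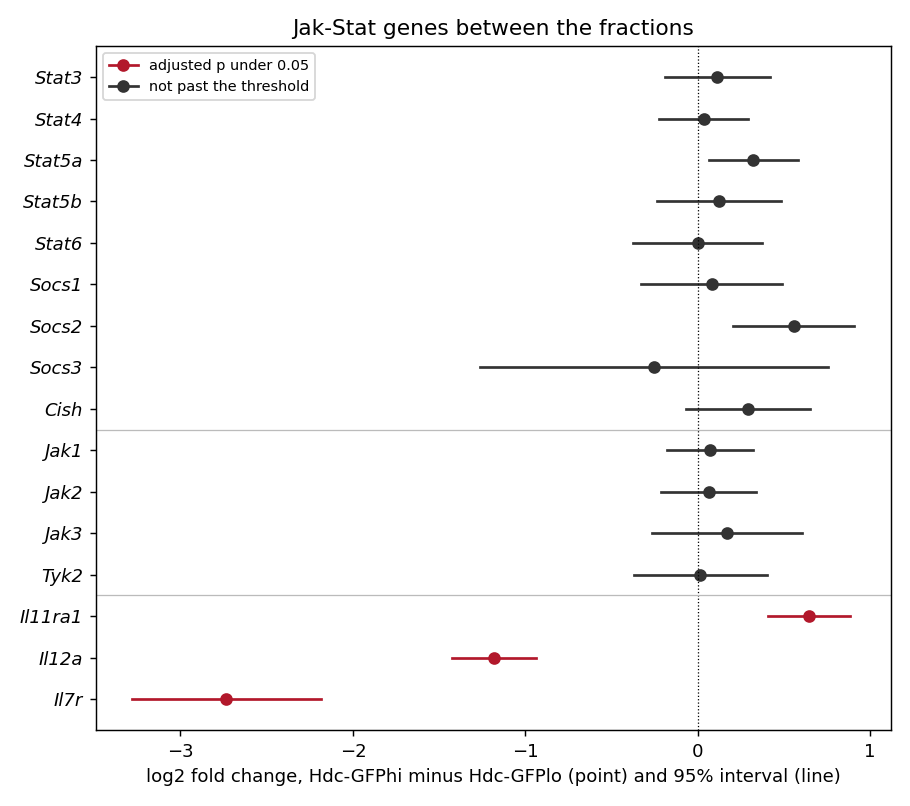
Log2 fold change of Hdc-GFPhi against Hdc-GFPlo with 95% intervals for the 9 Stat and Socs family genes (top), the 4 Jak kinases (middle) and 3 called receptor and cytokine genes (bottom), red where the adjusted p was under 0.05. Intervals of 7 of the 9 Stat and Socs family genes span 0, while Il11ra1 lies above and Il12a and Il7r below.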

How the data were processed

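RNA of 2000 sorted cells per library was amplified and sequenced, per the labels' protocols. The submitters' processing notes name bcl2fastq 1.8.4, Bowtie2, TopHat2 2.04, HTSeq 0.6.1 and the mm9 build; no source used here gives their settings, such as the use of strand or of reads with several placements. The deposited table holds raw read counts per gene from the authors. It has no coordinates, so sequences are RefSeq promoters of GRCm38.p6 and GENCODE M21 coding sequences of GRCm38, matched by symbol; Socs2 had no promoter entry. No column of per-sample values was left unused. Counts of every pair of replicates differed by more than sampling noise.

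Counts were filtered with filterByExpr, scaled by TMM and tested with edgeR 4.0.16 (quasi-likelihood, robust, R 4.3.3), with Benjamini-Hochberg adjustment over all 13300 genes and a threshold of 0.05. CPM are TMM-scaled, and log2 CPM use a prior count of 2. The script was tested on simulated data. Levels per kilobase use the longest GENCODE M21 transcript. Alternatives used other scalings and filters, DESeq2 1.42.0, limma 3.58.1 (voom with quality weights), a replicate block, a covariate for libraries 1 and 2 against 3 and 4, and libraries left out. Removal of a length trend, libraries 3 and 4 alone, and the Stat5a share with 1 library left out were added after seeing the data.

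The genes and lists were chosen with earlier results of these data known. Beyond the 9 genes, those named are every called gene of the Jak-Stat lists, the 2 with the smallest p in each list, the Jak kinases, Stat2, and the 3 genes most like Socs2 and Stat5a. Some genes that this rule names are not reported here, and the counts include them. Cell type markers, Fos, Junb and Btg2 were named outside this rule. The summed level of monocyte and neutrophil markers was 1260 to 1740 CPM in Hdc-GFPhi and 1730 to 2170 CPM in Hdc-GFPlo. Of those 10 markers edgeR called 2 lower, against 0.707% of all genes tested. The summed level of mast cell and basophil markers was 11 to 68 CPM in Hdc-GFPhi, against 6.41 to 96 CPM in Hdc-GFPlo. None of the 3 tested genes among them was called by edgeR, DESeq2 or limma voom or had an unadjusted p under 0.05.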

Additional observations from a re-analysis of the deposited data

Results flagged for a closer look

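Hdc-GFPlo library 3 lay far below the other 3 Hdc-GFPlo libraries for 3 genes. Stat5b had 144 CPM there, against 259 to 267 CPM in the others. Jak1 had 491 CPM, against 666 to 695 CPM, and Jak3 had 199 CPM, against 340 to 347 CPM. Each was flagged because the gap to the nearest library exceeded Dixon's 95% critical value. Chance flags about 1 in 20 groups, and 50 groups of 4 libraries, from 25 genes, were checked. All 3 flags fell on the library with less of long transcripts, and the part of transcript length in them was not tested.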

How the results depend on the processing

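Socs2 and Stat5a kept their direction under all 21 alternatives. The number of the 9 genes called was 1 with DESeq2, 1 with limma voom and 0 to 1 with 1 library left out (1 without Hdc-GFPlo library 3). The number of all genes called, 126, was 404 with DESeq2, 278 with limma voom, 275 with the split of libraries 1 and 2 against 3 and 4 as a covariate, 213 with the length trend removed, 19 in libraries 3 and 4 alone and 52 to 146 with 1 library left out. The number of Jak-Stat list genes called, 4, was 1 in libraries 3 and 4 alone and 3 to 5 with 1 library left out. The difference in Stat5a share was 1.62 to 4.58 points with 1 library left out. With the replicate number as a block, 224 genes were called in all, 0 of the 9 and 4 of the lists. Deviations of same-numbered libraries correlated by 0.38, 0.52, 0.11 and 0.1 for numbers 1 to 4. Libraries numbered 1 and 2 correlated best with their own number, and those numbered 3 and 4 with each other. The labels do not state that the numbers are pairs, so they were not taken as pairs. The log2 fold changes of Stat4, Stat5b, Stat6, Socs3, Jak1, Jak2, Tyk2 and Stat2 changed sign under some alternatives, all without a call, and the cause was not tested. Stat6 was 0.007 with upper-quartile factors, the replicate block and the length trend removed, 0.023 with no composition factor, 0.004 with no filter, and 0.001 with the stricter filter and in libraries 3 and 4 alone. Stat4 was -0.139 in libraries 3 and 4 alone. With limma voom Stat5b was -0.001, Jak2 -0.009, Tyk2 -0.082 and Stat2 -0.031, and without Hdc-GFPhi 4 and Hdc-GFPlo 3 together they were -0.038, -0.008, -0.063 and -0.046. With 1 library left out, the ranges were -0.07 to 0.105 for Stat4, -0.035 to 0.193 for Stat5b, -0.128 to 0.107 for Stat6, -0.529 to 0.023 for Socs3, -0.017 to 0.12 for Jak1, -0.033 to 0.132 for Jak2, -0.137 to 0.1 for Tyk2 and -0.076 to 0.125 for Stat2. Depth limits Socs1 most, at 126 to 241 counts per library.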
